A study of Mus musculus with 4 samples.

Results

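The tendon identity genes described here are Scx, Mkx, Tnmd, Six2, Eya1 and Eya2. They were taken by gene name from a table of 47643 genes, where each of the 6 names has 1 row. All 6 had at least 10 reads in at least 2 of the 4 libraries, as did 17191 genes in all. The table compares 2 populations of cells sorted from the mouse femoral periosteum, the connective tissue sheath of bone, by whether they carried a red fluorescent lineage label.

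Every animal of both groups carried 1 allele of the Sox9CreErt2 driver (Sox9tm1(cre/ERT2)Haak), which expresses a tamoxifen-dependent Cre recombinase from the Sox9 locus. Each also carried 1 allele of the Td-Tomato reporter (Gt(ROSA)26Sortm14(CAG-tdTomato)Hze), which turns on a red protein after Cre has acted. Both groups therefore came from the same tamoxifen-treated animals, and no untreated or Cre-negative animals are among the samples analysed. Tamoxifen (20 mg/mL, 100 µL) was injected into the peritoneum 3 times, with 48 h between injections, and the intact bones were collected 2 weeks later. The labels used here give no age or sex. The TdTomato-positive cells are those in which the label was switched on, in cells using the Sox9 locus during tamoxifen or in their descendants, and the TdTomato-negative cells are the rest of the same digest. Cells were freed from the shaft of the femur in 2 h with the collagenase blend liberase (100 µg/mL), and the labels name no marker in the sort other than the reporter. About 10000 cells of each kind came from 18 femora of 9 mice in 2 collections, giving 2 libraries per group, sequenced as 75-nucleotide paired reads.

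The 4 libraries are called here by group and depth, since the table does not tie its values to a collection. P32 and P42 are the TdTomato-positive libraries of 32 and 42 M reads, and N17 and N74 are the TdTomato-negative libraries of 17 and 74 M reads. Reads and depths were solved from the group summaries in the deposited table, which has no column per library. For the 6 genes the solution gave whole reads in every library, with a largest distance from a whole number of 0.0028 reads. The mice were pooled, so no p-value below measures the spread between animals. The p-values in the authors' deposited table come from a lognormal model with shrinkage. For the 6 genes, their order was that of the log difference, whatever the spread of a gene between its libraries. The deposited p-values are therefore not read here as measures of a gene's own spread between libraries. In bulk RNA of this kind, fewer cells of a type and less RNA per cell cannot be told apart.

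The libraries of a group were unlike each other, most of all the negative ones. Levels are given in RPM, the reads of a gene per 1 M reads of library depth. N74 held 23.7 RPM over 12 fibroblast markers together, against 9174 in N17, 6858 in P42 and 24910 in P32. The 8 leukocyte markers went the other way, with 47840 RPM in N74 against 12860 to 19180 in the other libraries. The 9 chondrocyte markers were high in both positive libraries (3560 and 2700 RPM) and low in N17 (61.0) and N74 (5.18). Sox9, the gene that drives the Cre, had 90.7 RPM in P32, 24.95 in P42, 18.4 in N17 and 0.135 in N74. Its levels in both positive libraries thus lay above those in both negative ones, though P42 and N17 were close. Some markers could be given to the libraries of a group in either order, and for these the order with the smaller difference was used.

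As background, Scx is a basic helix-loop-helix transcription factor that marks tendon and ligament progenitors, and Mkx is an atypical homeobox factor of the TALE class needed for normal tendon collagen fibres. Tnmd is a membrane glycoprotein of mature tendon cells whose expression depends on Scx. Six2 is a homeobox factor, and Eya1 and Eya2 are coactivators with a phosphatase domain that are recruited to DNA by sine oculis homeobox proteins such as Six2. These families are expressed in connective tissue of the developing limb, but also in muscle, kidney and sensory organs, so their members are less restricted to tendon than Scx and Tnmd.

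Scx and Tnmd were abundant in 3 of the 4 libraries and almost absent from N74, Mkx was near level in those 3 and low in N74, and Six2 was present in 1 library of each group and almost absent from the other. Eya1 and Eya2 were found in all 4 libraries. The log difference was above 0 for all 6 in the authors' deposited table, as for 51% of the 17191 genes with enough reads. Of the 6, only Tnmd, Eya1 and Eya2 were higher in both positive libraries than in both negative ones. None of the 6 passed a false discovery rate (FDR) of 0.05 in the authors' deposited table, in which 3 genes of 47643 did (0.0063%). The unadjusted p-value was below 0.05 for Scx and Tnmd, so for 2 of 6 members, against 1.58% of the 17191 genes with enough reads that were higher in the positive cells at that threshold. Both positive libraries exceeded both negative ones for 3 of 6 members, against 20.7% of the 10414 genes whose reads could be given to libraries in 1 order only.

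**Figure D1:**
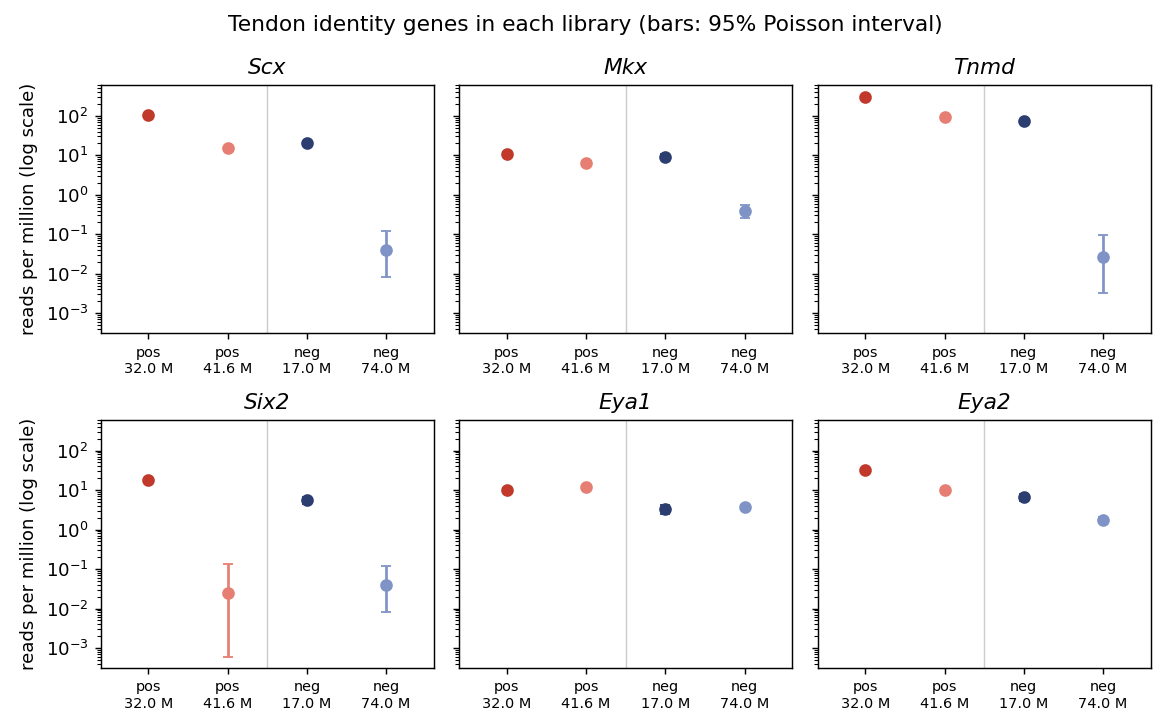
RPM (log axis) of each gene in the TdTomato-positive (red) and TdTomato-negative (blue) libraries, named by depth in M reads. Points are single libraries and bars are exact 95% Poisson intervals. Scx and Tnmd were at 0.0405 and 0.0270 RPM in the negative library of 74 M reads, Six2 was near 0 in 1 library of each group, and Eya1 was split by group with little spread inside it.

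Scx (ENSMUSG00000034161.7) spans chr15:76457438-76459468 on the plus strand of mm10, a short gene of 2031 bp. Exons joined over all its transcripts in GENCODE vM21 cover 2007 bp, which is the whole vM21 gene. Any intron of a single transcript is thus counted as exon. Scx had 3320 reads in P32, 641 in P42, 350 in N17 and 3 in N74. Scaled to depth, these were 103.9 RPM (95% interval 100.4 to 107.5), 15.4 (14.2 to 16.6), 20.6 (18.5 to 22.9) and 0.0405 (0.00836 to 0.118). The groups overlapped: P42 lay below N17, at 0.747 times its level (0.655 to 0.854), while P32 was 5.04 times N17 (4.51 to 5.64). Inside the negative group, N17 exceeded N74 by 509-fold (173 to 2478). The group means were 59.7 ± 62.6 RPM in positive and 10.3 ± 14.6 RPM in negative cells (SD, n = 2 each).

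In the authors' deposited table, the Scx level was 895 in positive and 303 in negative cells, a ratio of 2.95. Its difference on the log scale was 4.12 (log2), with a model p of 0.00498 and an FDR of 1.00 in the authors' deposited table. The exact permutation test on the 4 libraries gave p = 0.667 for Scx, and 2 libraries against 2 cannot go below 0.333. Scx lies inside Bop1, a ribosome biogenesis gene on the opposite strand, and shares no exon base with it in GENCODE vM21. Bop1 had 1252, 1395, 456 and 3147 reads in P32, P42, N17 and N74. Scaled to depth, Bop1 stood at 39.2, 33.5, 26.9 and 42.5 RPM in the same order, a narrower range than that of Scx. Whether reads were counted by strand is not given in the sources used here.

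Tnmd (ENSMUSG00000031250.8) lies at chrX:133850980-133865577 on the plus strand, with 1353 bp of exon in a span of 14598 bp. It was the most abundant of the 6, with 9842 reads in P32, 3850 in P42, 1234 in N17 and 2 in N74. These were 308.0 RPM (302.0 to 314.2), 92.5 (89.6 to 95.5), 72.7 (68.7 to 76.9) and 0.0270 (0.00327 to 0.0976). Both positive libraries exceeded both negative ones, but the step from N17 to P42 was small, 1.27-fold (1.19 to 1.36). P32 was 3.33 times P42 (3.21 to 3.46) and 4.24 times N17 (3.99 to 4.50). N17 exceeded N74 by 2690-fold (743 to 22236), a wider gap than between any positive library and N17.

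The Tnmd means were 200.3 ± 152.4 RPM in positive and 36.4 ± 51.4 RPM in negative cells (SD, n = 2 each). The authors' deposited table gives Tnmd levels of 409 and 150, a ratio of 2.72. It also gives, in the authors' deposited table, a log2 difference of 3.98 with p = 0.00551 and an FDR of 1.00. The exact permutation p for Tnmd was 0.333, the smallest the design allows.

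The stretch before the Tnmd start is shown because Tnmd was the most abundant member and 1 of the 3 whose groups did not overlap. The sequence is from RefSeq, build GRCm38.p6, chrX:133850758-133850979, plus strand, and ends at the base before the gene. Capitals mark the only match to the motifs searched on both strands, which were the E-box CANNTG, the Sox motifs ACAATG and ACAAAG, the Smad motif CAGAC, the MEF3 motif TCAGGTT, which sine oculis homeobox proteins bind, and the TALE motif TGACAG.
Tnmd: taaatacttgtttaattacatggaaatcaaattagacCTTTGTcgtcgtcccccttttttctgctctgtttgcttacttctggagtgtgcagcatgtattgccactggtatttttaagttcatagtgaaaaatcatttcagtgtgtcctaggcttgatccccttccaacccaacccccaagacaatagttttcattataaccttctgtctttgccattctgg
The match is to ACAAAG, on the reverse strand, and 15.0% of 32851 promoter windows of the same length hold that motif. No CANNTG stood in this window of 222 bp, where 62.4% of windows hold one. GC content was 39.2%. A match or its absence describes these letters and not the binding of a factor.

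Mkx (ENSMUSG00000061013.5) lies at chr18:6910459-7004780 on the minus strand, a deposited span of 94.3 kb, with 4095 bp of exon in the shorter GENCODE vM21 gene. It had 337 reads in P32, 262 in P42, 158 in N17 and 29 in N74. The levels were 10.5 RPM (9.45 to 11.7), 6.30 (5.56 to 7.11), 9.31 (7.91 to 10.9) and 0.392 (0.262 to 0.563). Mkx thus differed little among P32, P42 and N17, where P32 was 1.13 times N17, with an interval of 0.935 to 1.38 that includes 1. P42 was 0.677 times N17 (0.553 to 0.830), and N74 stood apart below all 3. N17 exceeded N74 by 23.8-fold (15.9 to 36.6), a smaller ratio than for Scx or Tnmd. In GENCODE vM21 the lowest position of Mkx is 6934518, and the rest of the deposited span belongs to a sense-overlapping gene at chr18:6910459-6936621 on the same strand, whose reads and those of Mkx cannot be told apart here.

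The Mkx means were 8.42 ± 3.00 RPM in positive and 4.85 ± 6.30 RPM in negative cells (SD, n = 2 each). The authors' deposited table has Mkx at 5.32 against 6.56, a ratio of 0.811, beside a positive log2 difference of 0.34 with p = 0.810 and an FDR of 1.00. The ratio of means and the mean of logs thus point opposite ways for Mkx. In these deposited levels, the RPM per kb of genomic span plus a fixed offset is divided by depth a second time. A gene with no reads thus stands at 2.77 in positive and 3.62 in negative cells. The shallower library of a group weighs more in its level. Ratios of deposited levels, here and for the other members, are therefore not ratios of mean RPM, and for Mkx they point opposite ways. Mkx, Eya1 and Eya2 have spans of 94.3, 141 and 177 kb, which brings their values per kb close to that offset, and the authors' deposited differences for them are small on that account. The exact permutation p was 0.667 for Mkx. Without N74 the Mkx log2 difference, fitted with limma on log2(RPKM + 1), was -0.013. Mkx stood below 1 RPKM in every library, so differences on that scale are small.

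Six2 (ENSMUSG00000024134.11) lies at chr17:85684277-85688274 on the minus strand, with 2119 bp of exon in 3998 bp. It had 572 reads in P32, 1 in P42, 93 in N17 and 3 in N74. The levels were 17.9 RPM (16.5 to 19.4), 0.0240 (0.000609 to 0.134), 5.48 (4.42 to 6.71) and 0.0405 (0.00836 to 0.118). Six2 was the only member of the 6 that was nearly absent from a positive library. P32 exceeded P42 by 745-fold, with a counting interval of 133 to 29468. The 2 low libraries, P42 and N74, could not be ordered (ratio 0.593, interval 0.0113 to 7.38).

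The Six2 groups interleaved, with 1 high and 1 low library in each and means of 8.96 ± 12.6 RPM in positive and 2.76 ± 3.85 RPM in negative cells (SD, n = 2 each). In the authors' deposited table, Six2 stood at 72.9 against 44.1, a ratio of 1.66, with a log2 difference of 0.75, p = 0.5996 and an FDR of 1.00. The exact permutation p was 1. Fitted with limma, its log2 difference was -0.62 without P32 and -0.014 without N74. Such a gap between the positive libraries was uncommon for a gene at this level. This comparison was made because of the gap, with genes chosen by the levels of Six2 itself, so it is a description and not a test. Of 1171 genes within 2-fold of Six2 in both P32 and N17, 37 (3.16%) had 3 or fewer reads in P42, and the median level there was 8.22 RPM. In N74, 115 of the 1171 had 3 or fewer reads, and 10 were that low in both.

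The Six2 upstream sequence is shown because this gene differed from the other members inside the positive group. It is from RefSeq, build GRCm38.p6, chr17:85688275-85688504, read 5′ to 3′ on the minus strand and ending at the base before the gene, with matches to the same motifs in capitals.
Six2: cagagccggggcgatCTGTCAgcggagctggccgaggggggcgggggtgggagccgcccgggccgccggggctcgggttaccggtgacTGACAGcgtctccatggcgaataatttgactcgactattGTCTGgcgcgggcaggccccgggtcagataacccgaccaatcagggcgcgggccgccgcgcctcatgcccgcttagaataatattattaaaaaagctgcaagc
The matches are 2 to TGACAG, of which 1 is on the reverse strand, and 1 to CAGAC on the reverse strand. Of all 32851 promoter windows of that length, 14.8% hold TGACAG and 39.7% hold CAGAC. The window of 230 bp had a GC content of 64.8%, above that of the Tnmd window. Neither an E-box nor TCAGGTT was in it, where 63.5% and 3.22% of windows hold them.

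Eya1 (ENSMUSG00000025932.14) lies at chr1:14168954-14310235 on the minus strand, with 7808 bp of exon. It had 315 reads in P32, 484 in P42, 56 in N17 and 278 in N74. The levels were 9.86 RPM (8.80 to 11.01), 11.6 (10.6 to 12.7), 3.30 (2.49 to 4.28) and 3.76 (3.33 to 4.23). The 2 libraries of each group were close, and the groups did not overlap. Every positive library exceeded every negative one by between 2.62-fold (2.23 to 3.09) and 3.53-fold (2.67 to 4.74). N17 and N74, which differed by 23.8-fold or more in Mkx, Scx, Tnmd and Six2, did not differ beyond counting error in Eya1 (ratio 0.878, interval 0.647 to 1.17).

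The Eya1 means were 10.7 ± 1.26 RPM in positive and 3.53 ± 0.324 RPM in negative cells (SD, n = 2 each), so the difference was larger than the spread between libraries. The exact permutation p of 0.333 is the smallest this design allows. The authors' deposited table has Eya1 at 4.85 against 4.49, a ratio of 1.08, with a log2 difference of 0.45, p = 0.754 and an FDR of 1.00. In RPM, without the offset, the difference of the mean log2 levels was 1.61.

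Eya2 (ENSMUSG00000017897.18) lies at chr2:165595032-165771727 on the plus strand, with 2963 bp of exon. It had 1044 reads in P32, 419 in P42, 112 in N17 and 127 in N74. The levels were 32.7 RPM (30.7 to 34.7), 10.1 (9.13 to 11.1), 6.60 (5.43 to 7.94) and 1.72 (1.43 to 2.04). Its groups did not overlap either, though the gap from N17 to P42 was 1.53-fold (1.24 to 1.90), less than the 3.24-fold (2.89 to 3.64) between P32 and P42. N17 exceeded N74 by 3.84-fold (2.96 to 4.996).

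The Eya2 means were 21.4 ± 16.0 RPM in positive and 4.16 ± 3.45 RPM in negative cells (SD, n = 2 each), and the exact permutation p was 0.333. In the authors' deposited table, Eya2 stood at 6.35 against 4.79, a ratio of 1.33, with a log2 difference of 0.74, p = 0.607 and an FDR of 1.00. In RPM the mean log2 levels of the groups differed by 2.43 for Eya2, 2.09 for Mkx, 5.45 for Scx, 6.91 for Tnmd and 0.48 for Six2. Small genes that overlap Eya1 or Eya2 held almost no reads, at most 8.01 in any library (Gm11460, inside Eya2).

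Set per kilobase of exon, so that genes can be compared, the order of the 6 changed between libraries. For Scx this length is the whole vM21 gene, so its level is too low if an intron is counted. For Mkx it is the vM21 exons alone, while reads were counted over the longer deposited span, so its level may be too high. Ranks of these genes near others are uncertain to that extent. In P32 it was Tnmd (228 RPKM, reads per kilobase of exon in RPM), Scx (51.8), Eya2 (11.03), Six2 (8.45), Mkx (2.58) and Eya1 (1.26). P42 kept Tnmd (68.4), Scx (7.68) and Eya2 (3.40) on top, followed by Mkx (1.54) and Eya1 (1.49), whose levels were close, with Six2 last at 0.0113. N17 had Tnmd at 53.7 and Scx at 10.3, then Six2 (2.59), Mkx (2.27) and Eya2 (2.23) almost level, and Eya1 at 0.423. In N74 the order was led by Eya2 (0.579) and Eya1 (0.481), with Mkx at 0.0957 and Scx, Tnmd and Six2 at 0.0202, 0.0200 and 0.0191. Those last 3 rest on 3 reads or fewer and cannot be ordered.

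Among 17132 genes, Tnmd stood at percentile 98.9 in P32, 97.1 in P42, 96.9 in N17 and 7.80 in N74. Scx stood at percentile 95.2, 76.7, 82.7 and 7.83 in the same libraries. Eya1 stood between percentile 19.6 (N17) and 43.0 (P42), and Eya2 between 31.3 (N74) and 80.9 (P32).

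**Figure D2:**
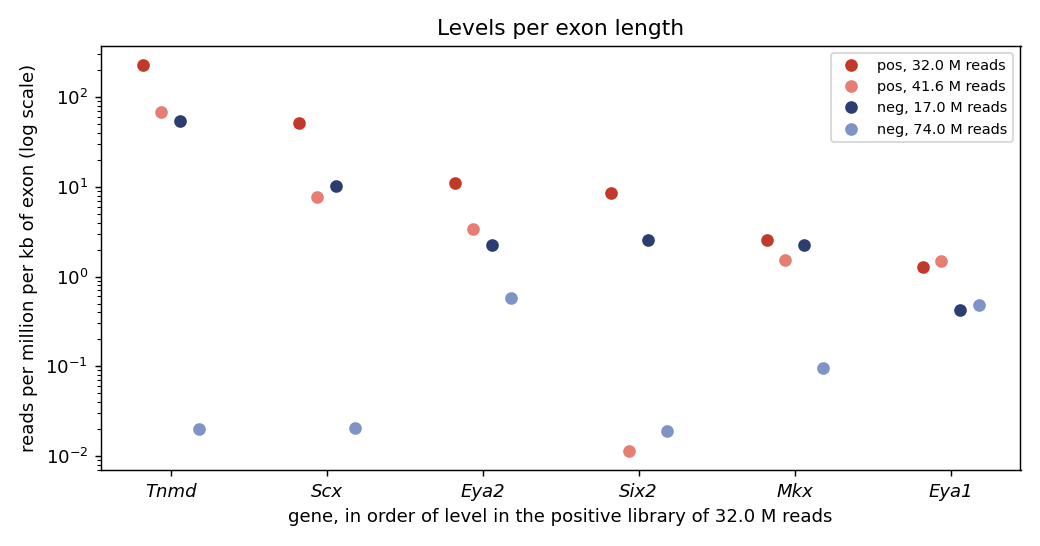
Level of the 6 genes per kilobase of exon (RPM per kb, log axis) in each library, with TdTomato-positive libraries in red and negative ones in blue. Each point is 1 library. Tnmd led in 3 libraries and was at 0.0200 in the negative library of 74 M reads, where Eya2 (0.579) and Eya1 (0.481) led.

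Proportions between the members also moved inside a library, where depth cancels. Tnmd reads were 2.96 times those of Scx in P32, 6.01 times in P42 and 3.53 times in N17. Mkx reads were 0.102 times those of Scx in P32 but 0.409 times in P42 and 0.451 times in N17, so that P32 held the least Mkx for its Scx. Eya2 reads were 3.31 times those of Eya1 in P32, 0.866 times in P42, 2.00 times in N17 and 0.457 times in N74. Over the 4 libraries, the root mean square difference in log2 RPM, after centring each gene, was 1.00 between Mkx and Eya2, 1.10 between Eya1 and Eya2 and 1.18 between Scx and Tnmd. The last of these rests in N74 on 3 and 2 reads.

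The genes nearest in pattern were sought among 3886 genes with resolved reads, over the same 4 libraries, on log2(RPKM + 0.1) per span. Nearest to Scx were Sod3, an extracellular superoxide dismutase (0.183), Mmp2, a matrix metalloproteinase (0.204), and Mt2, a metallothionein (0.270). Nearest to Tnmd were H19, an imprinted noncoding RNA (0.0833), Gpx8 (0.241) and Scarf2 (0.249). Nearest to Six2 were RP24-74B24.4 (0.121), Sat2 (0.201) and Foxs1 (0.255), which had 1, 2 and 0 reads in P42.

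By the same measure the nearest to Mkx were Mus81, Lztr1 and Pgrmc1, to Eya1 Srsf9, Emc3 and Itm2b, and to Eya2 Ddit4, Klc1 and Kctd6. The offset flattens these 3 members, so the search was repeated on log2(RPM + 0.1), a choice made after seeing the data. Mkx was then nearest to Cd200 (0.112), Fitm1 (0.184) and Adam33 (0.205). Eya1 was nearest to Mblac1 (0.0711), Mrps24 (0.0978) and Qtrt1 (0.105), and Eya2 to Maf (0.171), Abhd14b (0.171) and Pycr1 (0.199). On this scale Scx was nearest to Tnn, which encodes a tenascin (0.0832), Tnmd to the secreted protease Htra1 (0.240), and Six2 to Klf15 (0.270), Mmp3 (0.328) and Nog (0.384). Klf15, Mmp3 and Nog had 1, 0 and 3 reads in P42 against 782, 689 and 422 in P32. The gene nearest to a member thus depended on the scale for each of the 6, and Scarf2 was among the 3 nearest to Tnmd on both.

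The genes that tendon cells use to build their matrix, summed over the list, had 69610 RPM in P32, 11250 in P42, 16340 in N17 and 44.6 in N74. Most of that sum comes from genes whose values could be given to the libraries of a group in either order. These sums use the order with the smaller difference and would change with the other. The 12 resolved genes of the 28 summed to 6170, 1257, 1577 and 3.55 RPM in the same libraries. In both sums P32 was highest, P42 lay below N17 and N74 was lowest. All 28 of the tendon matrix and surface genes had a higher log level in the positive cells in the authors' deposited table, as did 51% of the 17191 genes. Their median log2 difference was 3.55, against 0.02 over the 17191 genes. An unadjusted p below 0.05 was reached by 20 of the 28 in that direction (1.58% of the 17191 genes), 0 passed the FDR, and 5 were higher in both positive libraries than in both negative ones whichever way their values are assigned, against 14.7% of the 17191 genes. Comp, a cartilage and tendon matrix protein, had the smallest p (2.42e-05, FDR 0.115 in the authors' deposited table). Comp stood at 1692 RPM in P32, 374 in P42, 117 in N17 and 0.149 in N74. Col1a1 and Col1a2, the chains of type I collagen, had log2 differences of 5.29 and 5.12 (FDR 0.755 and 0.832), and the collagen-binding proteoglycan Fmod 4.93 (FDR 1.00), all in the authors' deposited table. In P42 and N17, Col1a1 stood at 2598 and 3173 RPM and Col1a2 at 1934 and 2331, with their values in the order that differs less. Without N74, 25 of the 28 had a higher mean log level in the positive cells (limma). The medians of the 6 members and of this list were 0.75 and 3.55, and 3 of the 6 members have the long spans that bring a deposited difference near 0.

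Factors that act beside Scx in tendon were mixed. Of 16 listed tendon regulators, 14 had enough reads, of which 10 had a higher and 4 a lower log level in the positive cells, and 0 had an unadjusted p below 0.05. Over the 17191 genes, 51% had a higher log level and 1.58% a p below 0.05 in that direction. The list's median log2 difference was 0.57. The smallest p-values in the authors' deposited table belonged to Tgfb3 (log2 difference 2.60, p = 0.0679), a ligand that acts on tendon progenitors, and to the receptor Fgfr1 (2.43, p = 0.0873). Nfatc4 (2.16, p = 0.130) and Egr1 (1.27, p = 0.402), a zinc finger factor induced by load, came next, and Tgfb1 was slightly lower (-0.12, p = 0.933) in the authors' deposited table. Tgfbr2 and Etv5 were higher in both positive than in both negative libraries. These are 2 of the 14, a share like the 14.7% of the 17191 genes. Smad2 was lower in both positive libraries, though by little, with 28.8 RPM in P42 and 30.0 in N17. The share of all genes lower in this way was not computed, and these genes were named after their values were seen.

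Relatives of Six2, Eya1 and Eya2 were split in direction. Of 9 genes of the sine oculis homeobox, Eya and Dach families, 7 had enough reads, with 3 higher, 4 lower and a median log2 difference of -0.05. Over the 17191 genes, 51% were higher. Six5 had 12.4 RPM in P32, 2.84 in P42, 1.00 in N17 and 0.0811 in N74, so that its groups did not overlap. Its log2 difference in the authors' deposited table was 2.94, with p = 0.0401 and an FDR of 1.00. Eya3 and the nuclear cofactors Dach1 and Dach2, 3 of the 7, were higher in both negative than in both positive libraries. They were named after their values were seen and stayed below 1 RPKM. The share of all genes with that order was not computed, so no contrast with Eya1 and Eya2 is drawn. Dach2 had only 2, 0, 11 and 18 reads in P32, P42, N17 and N74. Dach1 had 1.91 and 8.05 RPM in the positive libraries against 13.1 and 29.7 in the negative ones.

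Of 7 basic helix-loop-helix relatives of Scx, 4 had enough reads. All 4 had a higher log level in the positive cells, as did 51% of the 17191 genes, and their median log2 difference was 2.05. Twist1, a mesenchymal factor, had 67.7, 10.3, 11.3 and 0.162 RPM in P32, P42, N17 and N74, an order of libraries like that of Scx. Its p was 0.0128 and that of Msc 0.0131, with an FDR of 1.00 for both in the authors' deposited table. Tcf15, the closest listed relative of Scx, had 2.19, 4.18, 7.60 and 0.189 RPM and its groups overlapped. Of 14 TALE homeobox relatives of Mkx, 11 had enough reads, 7 were higher and 4 lower, and the median was 0.07. Over the 17191 genes, 51% were higher. Irx3 (p = 0.0343), Irx5 (p = 0.0956) and Meis3 (p = 0.0811) in the authors' deposited table were higher in both positive than in both negative libraries. These are 3 of the 11, against 14.7% of the 17191 genes. Tgif1 (0.10) and Pbx2 (-2.15) had log2 differences with p = 0.948 and 0.136 in the authors' deposited table.

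All 4 relatives of Tnmd that share its BRICHOS domain had a higher log level in the positive cells, as did 51% of the 17191 genes. Their median log2 difference was 2.20. Lect1, which encodes chondromodulin, the closest relative of Tnmd and a cartilage protein, had a log2 difference of 5.29 with p = 0.000200 and an FDR of 0.476 in the authors' deposited table. It had 2 reads in N17, where Tnmd had 1234, and 15 in N74, where Tnmd had 2. Itm2a (p = 0.0250 in the authors' deposited table) had 619 and 265 RPM in the positive and 248.5 and 5.80 in the negative libraries. Itm2b was near level, between 1063 and 1516 RPM. In the authors' deposited table, p was 0.783 for Itm2b and 0.446 for Itm2c.

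**Figure D3:**
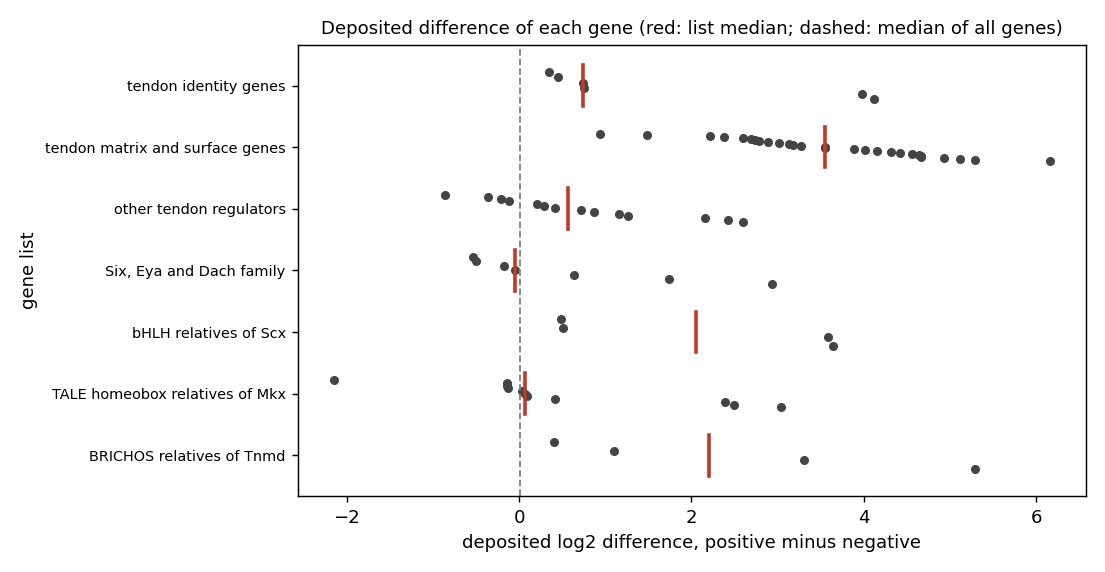
Difference of the log2 level, TdTomato-positive minus TdTomato-negative, from the authors' deposited table, for each gene with enough reads in 7 lists. Each point is a gene, red bars are list medians and the dashed line is the median of 17191 genes (0.02). The tendon matrix genes all lie above 0 with a median of 3.55, while Scx and Tnmd lie at 4.12 and 3.98 and the other members between 0.34 and 0.75.

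Marker lists of other cells, leukocytes apart, were also lowest in N74, but their order over the other libraries varied. Their part in the result was not tested. Summed over the 6 members the level was 482.9 RPM in P32, 136.0 in P42, 118.0 in N17 and 5.97 in N74. The fibroblast markers had the same low library, with 12 of 12 at under 10 RPM in N74, and none of them at 0 reads there. Dcn, Lum, Col3a1, Col5a2, Col6a1 and Col6a2 among them are also in the tendon matrix list, so these 2 lists are not independent. Osteoblast markers summed to 3142, 1133, 284 and 41.5 RPM. Most of the N74 sum came from Runx2 (30.0 RPM) and Alpl (10.3 RPM). Skeletal muscle also expresses the families to which Six2, Eya1 and Eya2 belong. Its 10 markers summed to 873, 514, 1181 and 5.64 RPM, with 3 of 10 at 0 reads in N74. In P32, P42, N17 and N74, endothelial markers summed to 87.4, 125, 110 and 42.5 RPM, and those of Schwann cells to 28.6, 8.80, 12.4 and 0.487. Most of the endothelial sum in N74 came from Pecam1 (38.8 RPM), while Cdh5 and Kdr stood at 0.419 RPM each and Tie1 at 2.88.

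**Figure D4:**
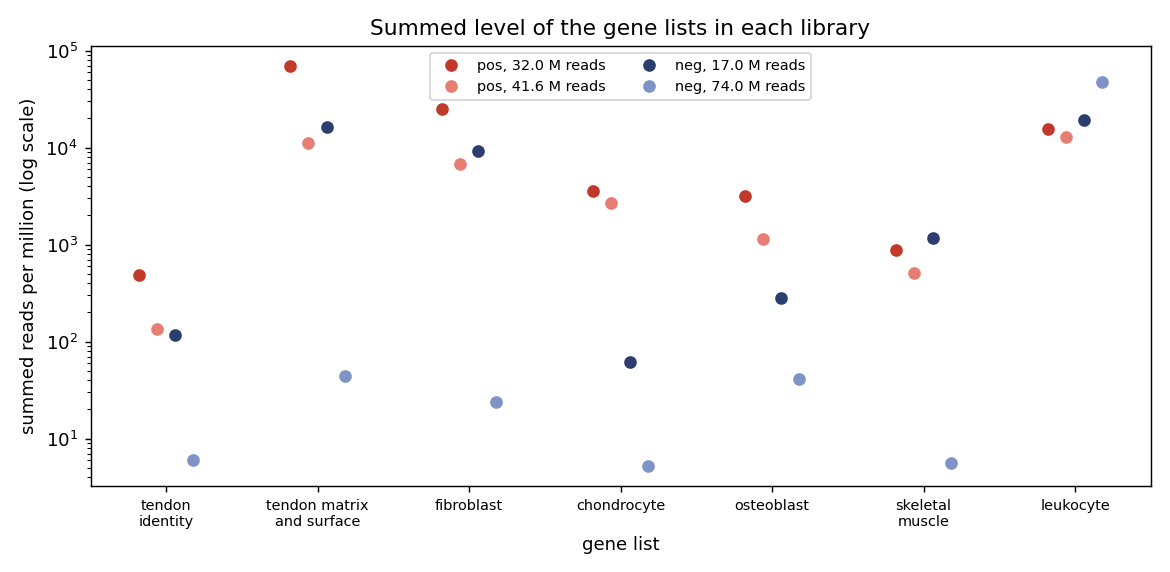
Summed RPM (log axis) of the tendon lists and of markers of 5 other cell types in each library, TdTomato-positive in red and negative in blue. The tendon matrix and fibroblast lists share Dcn, Lum, Col3a1, Col5a2, Col6a1 and Col6a2, so they are not independent. Each point is 1 library. The negative library of 74 M reads is lowest in each list but the leukocyte markers, where it is highest at 47840.

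Set against the geometric mean of the 12 fibroblast markers in the same library, the members fell into different patterns. Scx was at 12.2% of that mean in P32, 6.16% in P42, 5.14% in N17 and 3.99% in N74. Tnmd was at 36.1%, 37.0%, 18.1% and 2.66%. Mkx was at 1.24%, 2.52%, 2.32% and 38.6%, and Six2 at 2.10%, 0.00961%, 1.37% and 3.99%. Eya1 and Eya2 were at 1.15% and 3.83% in P32, 4.65% and 4.03% in P42 and 0.823% and 1.65% in N17, but at 370% and 169% in N74. Eya1 and Eya2 in N74 were thus above a fibroblast level that was itself 1.02 RPM. The positive values depend on how unresolved markers are assigned: the geometric means were 854 and 250 RPM in P32 and P42, and 264 and 800 with the other order. With that order Scx was at 39.3% in P32 and 1.92% in P42, and Tnmd at 117% and 11.6%, so that P42 lay below N17 for both genes. With the 4 markers resolved in both groups alone, P42 stood at 3.68% for Scx, below the 5.49% of N17, and at 22.1% for Tnmd, above the 19.4% of N17.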

How the data were processed

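Femoral periosteal cells were sorted into 2 TdTomato-positive and 2 TdTomato-negative libraries. The submitters' processing notes name STAR, Partek and the mm10 build, without versions. The authors deposited, per the file headers, group means and a maximum of a normalized signal, a natural log difference, a ratio of group means, the same ratio signed (a score), and a p-value with step-up FDR from a lognormal model. The scale and library values were inferred: 4 values per gene were solved for 47643 genes, and depths were read from 3104 genes with no reads. An offset of 0.1 RPKM per genomic span and a second division by depth and span were undone. The deposited Akaike criterion, not used in solving, ran from -88.7 to 73.3, but lay between 24.5 and 25.8 once 2 times the solved natural log sum was taken off. A group's values were assigned to libraries where only 1 order gave whole reads (within 0.01 reads plus 5e-06 of the reads, at most 0.05). This resolved 60.6% of 17191 genes and all 6 members. On simulated data, 99.8% of genes with whole reads were resolved, 100% of them correctly, and of genes with fractional reads 27.7%, of which 99.8% correctly.

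Counting intervals are exact Poisson at 95%, exact binomial for ratios, and cover counting error only. The alternative test was limma 3.58.1 (R 4.3.3) on log2(RPKM + 1). Genes named from lists were those with the smallest deposited p among genes reaching 1 RPKM, up to 4 a list in each direction, and, from families of relatives, those reaching 1 RPKM, up to 6 a list. Eya3, Dach1, Dach2, Tgfbr2, Etv5 and Smad2 were named after their values were seen. A gene that this rule names is not reported here. Pattern neighbours were the 3 with the smallest root mean square difference. Members and lists were chosen with earlier results of these data known. Exon lengths are from GENCODE vM21, joined over all transcripts of a gene, and promoters from RefSeq, where 2 of the 6 members had an entry.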

Additional observations from a re-analysis of the deposited data

How the results depend on the processing

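No paired analysis was possible because the table has no library columns and the recovered values carry no collection number. All 6 members were resolved, so the other assignment of their values gave nothing to run. In limma 0 genes passed an FDR of 0.05 under any of 11 settings (1354 of 17191 had an unadjusted p below 0.05 on log2(RPKM + 1)), and the members' adjusted p ran from 0.407 to 1. The 2 members with a deposited p below 0.05 became 0 in limma with pseudocount 1 or 0.1, with no filter, with median-of-ratios scaling, and on RPM or exon scales (chosen after seeing the data). Leaving out 1 library gave 0 to 3 such members, and 3 to 6 with all positive above all negative libraries.

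With 1 library left out, limma's log2 difference ran from 0.92 to 4.38 for Scx and 1.09 to 3.67 for Tnmd. It ran from 0.06 to 0.08 for Eya1 and 0.05 to 0.21 for Eya2, the lone library being assumed to vary like the other group. This was on log2(RPKM + 1) per genomic span, where the pseudocount exceeds the levels of Mkx, Eya1 and Eya2 and flattens their differences. With all libraries on log2(RPM + 1), these were 1.28 for Mkx, 1.37 for Eya1 and 2.09 for Eya2. Scx and Tnmd were lowest without N74. Mkx (-0.013 to 0.12) and Six2 (-0.62 to 1.82) turned sign: Mkx to -0.013 and Six2 to -0.014 without N74, and Six2 to -0.62 without P32. Relative to the fibroblast markers, the differences turned to -2.42 for Mkx, -4.04 for Six2, -2.91 for Eya1 and -2.09 for Eya2, and the cause was not tested. Genes higher among the sine oculis homeobox, Eya and Dach families were 3, 5 with no filter and 1 to 4 with 1 library left out. The mean positive level per exon length was 2.06 RPKM for Mkx, 148.0 for Tnmd, 1.38 for Eya1 and 7.21 for Eya2, against 0.0893, 13.7, 0.0761 and 0.121 per genomic span, which follows from the shorter length. Of the other settings, 65 for single members, 46 for lists, 15 for member counts and 2 for levels kept their direction and their side of the FDR threshold of 0.05, or stayed close to the main count or level. Depth limits what 1 to 3 reads can show: 3 reads are 0.0405 RPM in N74 and 0.177 in N17.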
